A study of Arabidopsis thaliana with 6 samples.

Results

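SAUR genes (small auxin up RNAs) of Arabidopsis thaliana were compared between roots given gold and roots given none. Of 60 SAUR loci listed for this comparison, 3 had a probe set that the annotation used here named for that gene alone. They were SAUR10 (AT2G18010), SAUR57 (AT3G53250) and SAUR58 (AT1G43040), among 13350 genes named in this way on the array. Probe sets naming several genes were not used. The other 57 loci were not analysed here, so the values below describe 3 genes and not the family. The loci were listed by gene family, at a time when earlier results of these data were known. Biotin-labelled RNA of hydroponically grown Col 0 roots had been hybridised to 6 ATH1 arrays, from 3 jars in which 0.125 mM KAuCl4 at pH 5.7, a soluble salt of gold(III), replaced the growth medium and from 3 jars without gold. All plants were of that ecotype, with no other genotype in the labels, and had grown for 14 days in sealed sterile jars. The control jars are untreated in the sample labels and given water in the design text, and the exposure is 24 h in the sample labels but 6 h in the treatment protocol. The deposited values are centred on each probe set's median over the 6 arrays, so they carry differences between arrays and no expression level. Whether a SAUR transcript was above background, and whether the tissue shows the levels of root markers, could not be judged from them. The roots were measured in bulk, so fewer cells of a type and less RNA per cell cannot be told apart.

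SAUR genes are the largest family of early auxin-responsive genes in plants, and many of them are transcribed within minutes of an auxin pulse. Auxin binds TIR1/AFB receptors, Aux/IAA repressors are then degraded, and auxin response factors are released to activate SAUR, GH3 and Aux/IAA genes. Several SAUR proteins bind and inhibit clade D PP2C phosphatases, which keeps plasma membrane proton pumps phosphorylated and active, acidifies the wall and promotes cell expansion. Members differ widely in tissue and in response to auxin, and some are controlled by other hormones or by light.

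In the RefSeq gene table (TAIR10.1, used for names and gene order), 25 of the 60 listed loci lie directly beside another SAUR gene among protein-coding genes, and 35 do not. The measured members belong to the second kind: SAUR10 lies between AT2G18000 and AT2G18020, SAUR57 between AT3G53235 and AT3G53260, and SAUR58 between AT1G43020 and AT1G43080. Their probe sets carry no suffix for sequence shared with other genes. None of the tandem SAUR clusters had a member with a probe set named for it alone. Most of the 35 loci not beside another SAUR gene lacked one as well. The SAUR19 subfamily and SAUR15 (SAUR-AC1) were among those not analysed here. Whether probe sets naming several genes, or those with no gene named, cover these clusters was not examined.

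With gold, none of the 3 measured SAUR genes passed the test in either direction. SAUR58 was higher by 0.34 on the log2 scale with no overlap of the groups, SAUR10 was lower by 0.28 with a single control array setting the difference, and SAUR57 differed by 0.03. Of all 22746 probe sets tested, 20.2% passed at an adjusted p below 0.05, 9.32% higher and 10.9% lower with gold. With 3 genes, a count of 0 is near that background share. No SAUR gene had an unadjusted limma p below 0.05 on the values as deposited. With quantile normalization, without no gold replicate 1 and in an equal-variance test that does not pool the spread, 1 of 3 did, and 0 passed in any of these after adjustment.

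SAUR58 had the most separated values. On the centred log2 scale it stood at -0.0802, -0.334 and -0.229 on no gold arrays 1 to 3, and at 0.212, 0.0802 and 0.0827 on gold arrays 1 to 3. Every gold value lay above every no gold value, an arrangement found in 37.2% of all probe sets tested when either direction is counted. The means were 0.125 ± 0.0756 with gold and -0.215 ± 0.128 without (SD, n = 3 and 3). The difference of 0.34 ± 0.149 (SE; limma adjusted p = 0.165) corresponds to 1.27-fold, with a 95% confidence interval from 0.995-fold to 1.61-fold. The exact two-sided permutation p for SAUR58 was 0.1, the smallest that 3 jars against 3 can give. The change in SAUR58 was larger in size than that of 56.0% of probe sets, and its values spanned 0.547 over the 6 arrays, a wider span than in 26.8% of probe sets.

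SAUR10 showed the widest spread of the 3 genes. Its no gold values were 0.804, 0.105 and -0.148 on arrays 1 to 3, and its gold values were 0.00656, -0.00656 and -0.0793. The gold values sat within the range of the no gold values, so the groups overlapped. No gold replicate 1 alone was far from 0, and the SD was 0.493 without gold against 0.0463 with gold (n = 3 and 3). The difference between the group means, -0.0264 with gold and 0.254 without, was -0.28 ± 0.247 (SE; limma adjusted p = 0.522). As a ratio it was 0.823, with a 95% confidence interval from 0.554 to 1.22, and the exact two-sided permutation p was 0.5. The span of SAUR10 over the arrays was 0.952, wider than in 58.9% of probe sets.

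The array that set SAUR10 apart also differed in its control transcripts. Averaged over the actin controls, the 5' sets minus the 3' sets gave a centred log2 difference of -2.58 on no gold replicate 1 and -0.611 to 0.269 on each other array. For the GAPDH control probe sets the difference was -3.63 there and -0.397 to 0.255 elsewhere. The gold arrays were not uniform either: across probe sets they correlated at 0.58 (replicates 1 and 2) to 0.84 (replicates 2 and 3). The SD across tested probe sets ran from 0.371 on gold replicate 1 to 0.717 on gold replicate 2. No gold replicate 1 correlated with the other no gold arrays at 0.48 and 0.46 across probe sets, while those arrays correlated with each other at 0.86. Without that array the SAUR10 difference was -0.01 ± 0.144 (SE; limma adjusted p = 0.984), with a 95% confidence interval from -0.35 to 0.34. The SAUR58 difference without it was 0.41 ± 0.135 (limma adjusted p = 0.0804), with an interval from 0.08 to 0.73, and still did not pass over all probe sets. The part of the low 5' signal in the SAUR10 value on that array was not tested.

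SAUR57 hardly varied. Its values were 0.171, -0.0764 and -0.0874 on no gold arrays 1 to 3 and 0.0971, 0.0725 and -0.0725 on gold arrays 1 to 3, and the groups overlapped throughout. The highest value was again on no gold replicate 1. The group means were 0.0324 ± 0.0917 with gold and 0.00242 ± 0.146 without (SD, n = 3 and 3). The difference of 0.03 ± 0.154 (SE; limma adjusted p = 0.936) amounts to 1.02-fold, with a 95% confidence interval from 0.797-fold to 1.31-fold and an exact two-sided permutation p of 0.8. Only 7.25% of probe sets had a smaller change in size, and only 3.90% a narrower span over the 6 arrays than the 0.258 of SAUR57. Without no gold replicate 1 the SAUR57 difference was 0.11 ± 0.135 (limma adjusted p = 0.587).

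**Figure D1:**
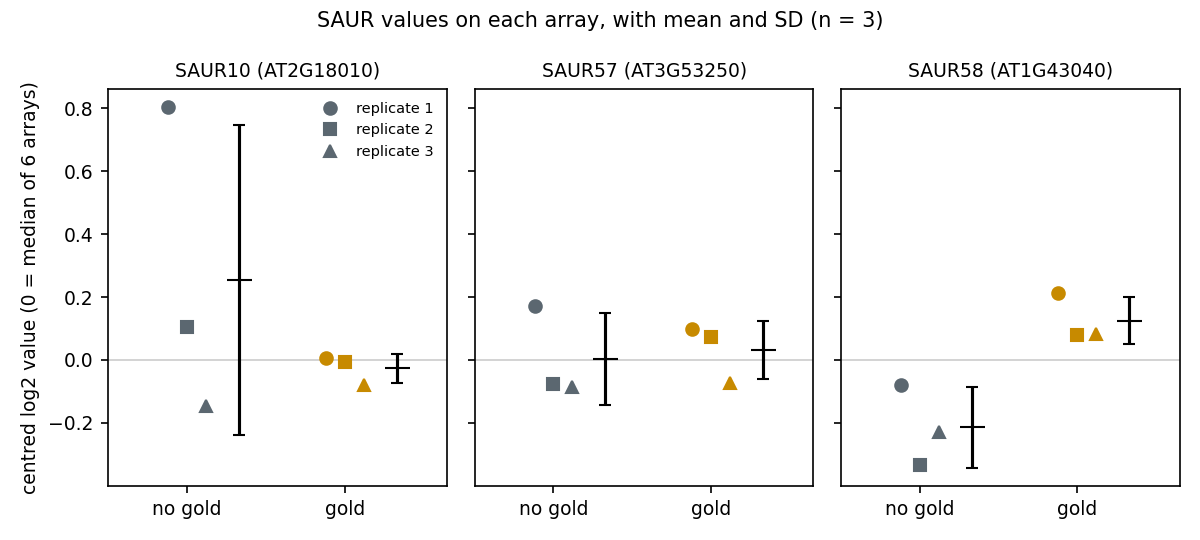
Centred log2 values (vertical axis, 0 is the median of the 6 arrays) of SAUR10, SAUR57 and SAUR58 on each no gold (grey) and gold (amber) array, with the mean and SD of each group of 3 in black. The groups are apart for SAUR58 alone, and the value of 0.804 for SAUR10 on no gold replicate 1 stands above all the others.

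In the fit of all 6 arrays as deposited, no interval of the 3 SAUR genes reached a 2-fold change in either direction. The lowest bound in that fit was the ratio of 0.554 for SAUR10 and the highest the 1.61-fold of SAUR58. These bounds rest on the reading of the deposited values as log2 and on a spread that limma shares among probe sets, and a change in a transcript near background may be understated. The median change of the 3 genes was 0.03, beside -0.04 over all probe sets tested. SAUR58 lay above 81.4% of all changes, SAUR57 above 59.0% and SAUR10 above 29.1%. The SE of SAUR58 and SAUR57 was below the median SE of 0.199 over all probe sets, and that of SAUR10 was above it.

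**Figure D2:**
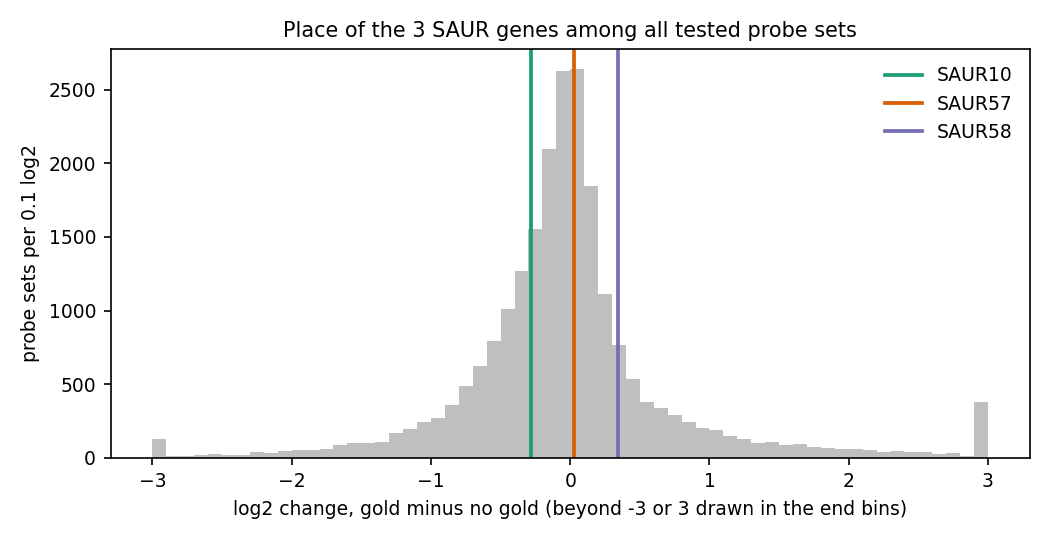
Histogram of the log2 change (gold minus no gold, horizontal axis) of all 22746 tested probe sets, as probe sets per 0.1 log2 (vertical axis), with the changes of SAUR10 (-0.28), SAUR57 (0.03) and SAUR58 (0.34) as coloured lines. All 3 lie in the central part of the distribution.

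Other genes of the auxin pathway were taken from 10 lists, of which 6 had measured members: 4 of 25 measured genes rose with gold, 3 fell and 18 did not pass, with a median change of 0.03. Over all probe sets tested 9.32% were higher and 10.9% lower, so with 25 genes these counts are near the background. The auxin receptors, auxin response factors, proton pumps and PIF, BZR and HBI1 growth regulators had no probe set naming 1 gene alone. They were not analysed here. Among GH3 enzymes, which join auxin to amino acids and of which some but not all are induced by auxin, 1 of 5 rose and 2 fell. GH3.17 fell by 3.12 ± 0.18 (SE, n = 3 and 3; limma adjusted p = 4.67e-05), from 1.36, 1.76 and 1.52 on the no gold arrays to -1.59, -1.76 and -1.36 with gold. GH3.3 stood at -0.258, -0.721 and -0.957 without gold and at 0.258, 2.65 and 2.73 with gold, so gold replicate 1 lay far below the other gold arrays. Its rise was 2.52 ± 0.617 (limma adjusted p = 0.0243), and the call was lost without no gold replicate 2 or 3 or gold replicate 2 or 3 (up to 0.0986). WES1, also named GH3.5, fell by 0.77 ± 0.213 (limma adjusted p = 0.04), a call lost without each array in turn other than no gold replicate 1 (up to 0.152) with the replicate block (0.0776), with array median centring (0.0536) and with quantile normalization (0.0605).

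Of 7 Aux/IAA repressors, 1 rose: IAA18 by 0.58 ± 0.157 (SE; limma adjusted p = 0.0363). The IAA18 call was lost without any 1 array other than gold replicate 1 (0.0511 without no gold replicate 1, and up to 0.156) and with the replicate block (0.0796). LBD16, a transcription factor of lateral root initiation that acts below auxin response factors, rose by 0.99 ± 0.205 (limma adjusted p = 0.0121), without passing when no gold replicate 2 (0.0536) or gold replicate 3 (0.066) was left out. The other measured genes of that list were at 0.03 (LBD29) and 0.39 (HAT2), and HAT2 passed with quantile normalization (limma adjusted p = 0.0379) and in the equal-variance test without pooling (adjusted p = 0.0162). That test ended the calls of GH3.3 (adjusted p = 0.161), WES1 (0.134), LBD16 (0.0749) and IAA18 (0.0587). WAG2, a protein kinase that acts on PIN auxin carriers, fell by 1.60 ± 0.201 (limma adjusted p = 0.00126). In the list for auxin synthesis and oxidation AT1G14130 rose by 2.15 ± 0.14 (limma adjusted p = 6.67e-05), while YUC2, YUC4, YUC6 and YUC11, enzymes of auxin synthesis, ranged from -0.26 to 0.14 and did not pass. None of the 4 measured clade D PP2C phosphatases passed, and AT3G17090 had the lowest p of them at -0.41 ± 0.164 (limma adjusted p = 0.126). Without no gold replicate 1 the counts over the lists were 3 higher and 3 lower. SAUR58, at 0.34, thus lay among the changes of pathway genes that did not pass (-0.59 to 0.42).

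**Figure D3:**
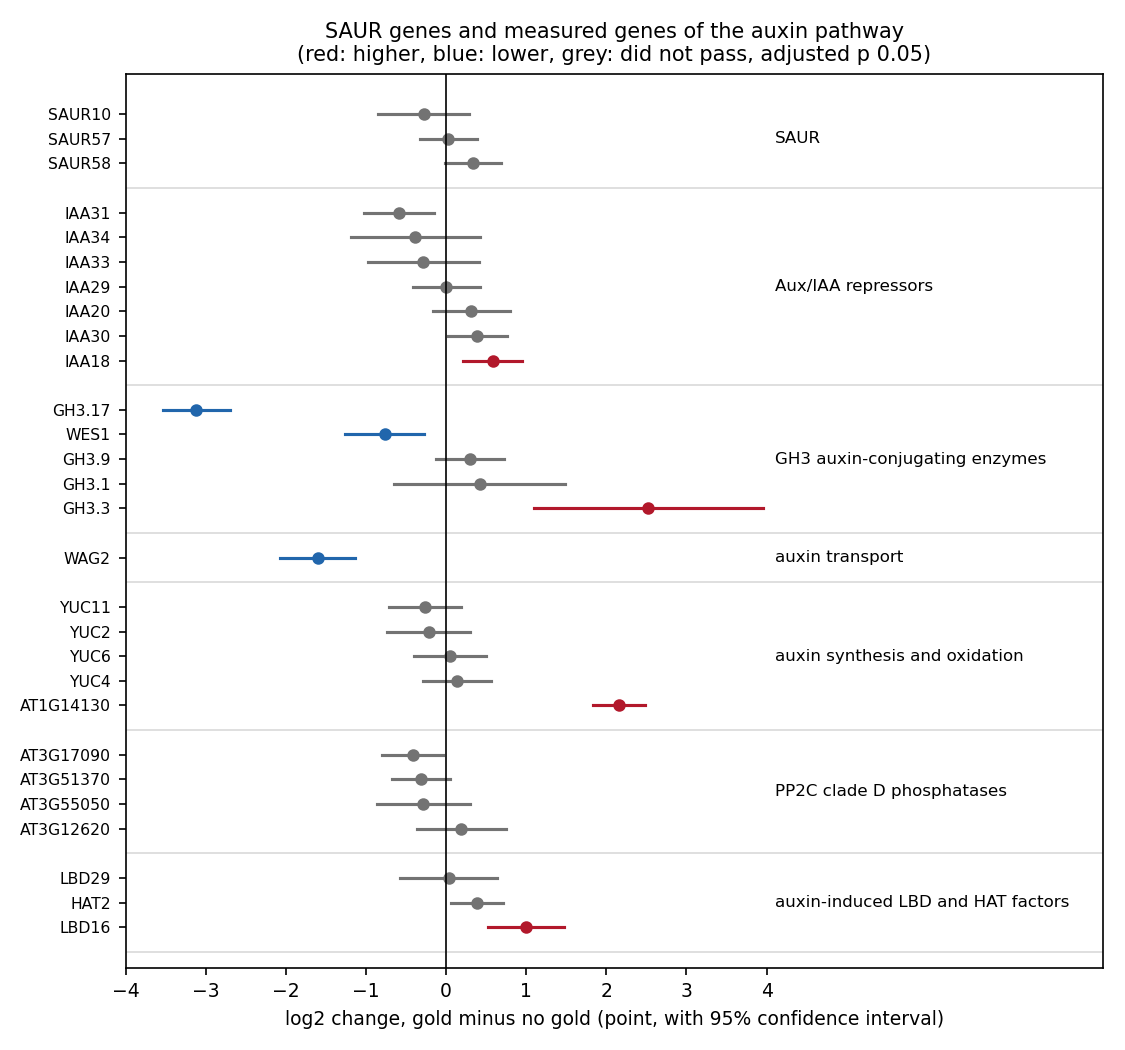
Log2 change with gold (horizontal axis, point with 95% confidence interval from limma) of the 3 SAUR genes and 25 measured genes of the auxin pathway, grouped by list, in red where higher, blue where lower and grey where the test was not passed. The SAUR intervals all include 0, whereas GH3.17 (-3.12) and GH3.3 (2.52) mark the extremes.

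Markers of cell types that could shift SAUR values were thinly covered. Of 7 root hair genes listed, 3 were measured and all 3 fell, beside 10.9% of all probe sets lower with gold. Their changes were -2.53 (AT1G30870), -2.36 (EXPA18) and -2.34 (EXPA7), with limma adjusted p from 0.00237 to 0.00428. Without pooling of the spread all 3 lost their call (adjusted p = 0.0567, 0.0728 and 0.0628 in the same order, equal-variance test beside the limma fit). Of the shoot genes RCA fell by 1.49 ± 0.226 (SE; limma adjusted p = 0.00305) and PRK was at -1.48 without passing (limma adjusted p = 0.0737). PRK passed with the replicate block (limma adjusted p = 0.0256) and without no gold replicate 3 (0.0375). The phloem gene SWEET11 was at -0.81 without passing (limma adjusted p = 0.0758), and passed without no gold replicate 3 (0.0381) or gold replicate 2 (0.0423). The part of these differences in the SAUR values was not tested. Markers of endodermis, root cap and xylem had no probe set naming 1 gene alone and were not analysed here.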

How the data were processed

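RNA of 6 root samples was measured on ATH1 arrays. The values deposited by the authors are on a log scale read here as log2 (base not stated), with the 6-array median of every probe set at 0 (tolerance 1e-06). How probes were summarised and arrays scaled is not given in the sources used here. After 64 control probe sets were set aside, 22746 were fitted with limma 3.58.1 (R 4.3.3, lmFit and eBayes), as gold minus no gold in two-sided tests. Adjustment was by Benjamini-Hochberg over all of them, with a threshold of 0.05. No scaling or filter was added, and precision is limited by the number of arrays. Genes were named from GEO's platform annotation, which lists 1 gene for 13513 tested probe sets, several for 503 and none for 8730. The 503 were tested but not assigned to any gene. The SAUR genes were matched by locus code, because their older gene IDs were not in the RefSeq table. The members and lists were chosen with earlier results of these data known. Named were all measured SAUR genes and, per list, up to 4 genes that passed or the one with the lowest p; LBD29, HAT2, the YUC genes and PRK were named as well, after their values were seen. Jars are separate per the design text. The array numbers were not taken as pairs in the reported fit, and a replicate block was run as an alternative. The deviations of arrays with the same number correlated at -0.11, -0.25 and 0.28. Arrays with different numbers were not compared in this way, so these values cannot decide whether the numbers mark pairs. In a simulation over 22746 probe sets, limma called 35 of 100 changed by 1 on the log2 scale and 83 of 100 changed by 2. It also called 11 of 22546 unchanged ones. Far fewer probe sets were changed there than the 4601 that passed in the data, which makes the adjustment stricter. The shares called in the simulation therefore need not hold for the comparison of gold with no gold. Alternatives tried were quantile normalization, array median centring, a replicate block, each array left out, robust empirical Bayes, an ordinary test, limma treat at 1.5-fold, a 2-fold minimum and unsuffixed probe sets alone. Tables used pandas 2.3.3, scipy 1.17.1 and numpy 2.4.6 under Python 3.11.15, and plots matplotlib 3.10.9.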

Additional observations from a re-analysis of the deposited data

How the results depend on the processing

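No SAUR gene passed under any of the 14 alternatives. Over these and the reported setting the log2 change ranged from 0.28 to 0.48 for SAUR58 (adjusted p from 0.0687 with quantile normalization), from -0.48 to -0.01 for SAUR10 and from -0.01 to 0.12 for SAUR57, whose sign was negative in 3 of 15 settings. The SAUR median ranged from -0.01 to 0.12. With the replicate block the SAUR median was 0.03, and 3 auxin pathway genes were higher and 2 lower. Auxin pathway genes higher numbered 1 to 4 with arrays left out, 2 with the ordinary test, 2 with the 2-fold minimum and 1 with treat; those lower numbered 2 to 3 with arrays left out. Over all probe sets, arrays left out gave 1262 to 2432 higher and 1258 to 2717 lower, the ordinary test 922 and 1015, treat 968 and 757, and the 2-fold minimum 1456 lower. The ordinary test does not pool the spread, and treat and the 2-fold minimum ask for larger changes; for the left-out arrays the cause was not tested. Of 34 single genes, 7 lost a call under some alternative and 3 gained one. Reversal was counted only for genes that passed in the reported setting, and none of those changed sign. Signs did change among genes that had not passed, as for SAUR57. GH3.1 went from 0.42 to -0.17 without gold replicate 2, and LBD29 from 0.03 to -0.23 without no gold replicate 2. Intensity trend and a filter on dim probe sets need levels, which centring removed, and were not run.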
